A study of Mus musculus with 10 samples.

Results

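Non-classical major histocompatibility complex (MHC) class I genes and the class I-like genes Cd1d1 and Mr1 were followed across cell populations sorted from the mouse mammary gland. The set was named by symbol and not by a cutoff on measured values, but with earlier results of these data known. It holds H2-M2, H2-M3, H2-T22, H2-T23, H2-Q4, H2-Q6, H2-Q7, Cd1d1 and Mr1, which are 9 of the 27179 genes in the count table. All 9 had counts in every library and all 9 passed the filter on low counts. RNA-seq had been done on freshly sorted cells of virgin adult females of the C57BL/6 strain, with no treatment and no genetic change given in the labels. The populations were ductal macrophages (those lying along milk duct epithelium), stromal macrophages (those of the tissue between ducts), CD11b-CD103+ dendritic cells (CD103+ below), CD11b-CD103- dendritic cells (CD103- below) and CD11b+ dendritic cells. Each population had 2 libraries that the labels call biological replicates, without saying whether a library held cells of 1 mouse or of a pool. Age in weeks and the full sorting gates were not given in the sources used here.

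Class I molecules are heavy chains that pair with beta-2-microglobulin and display ligands on the cell surface. Classical molecules, H2-K and H2-D in this strain, are highly variable between individuals and show peptides to CD8 T cells. Non-classical molecules vary little, and each shows a narrow kind of ligand to particular receptors. H2-T23 encodes Qa-1, which carries leader peptides of classical class I and is read by the CD94/NKG2A receptor of natural killer cells and some T cells. H2-M3 binds peptides that begin with formyl-methionine, as bacterial and mitochondrial proteins do, and H2-T22 is bound directly by some gamma-delta T cell receptors. H2-Q6 and H2-Q7 encode forms of Qa-2, H2-Q4 encodes Qb-1, and the role of H2-M2 is little known. CD1d, from Cd1d1, presents lipids to natural killer T cells, and MR1 presents metabolites of microbial vitamin B2 synthesis to mucosal-associated invariant T cells.

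Of the 9 genes, 7 lie in the MHC on chromosome 17 (GRCm38). H2-Q4 (gene ID 15015) spans chr17:35379617-35384674, H2-Q6 (gene ID 110557) chr17:35424850-35430055 and H2-Q7 (gene ID 15018) chr17:35439140-35443773. H2-T23 (gene ID 15040) spans chr17:36029977-36032701 and H2-T22 (gene ID 15039) chr17:36037128-36042742. H2-M3 (gene ID 14991) spans chr17:37270234-37274485 and H2-M2 (gene ID 14990) chr17:37480851-37483554. Cd1d1 (gene ID 12479) spans chr3:86995834-87012358 and Mr1 (gene ID 15064) chr1:155127874-155146814. All 9 are annotated as protein coding.

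How well short reads tell these genes apart differs between them, which bears on each level. Windows of 80 bases, the read length, were compared between annotated transcripts of all genes. No window of H2-M2, H2-M3 or Mr1 was also found in another gene. The shared part was 6.59% of windows for H2-Q4, 11.7% for H2-T23, 15.8% for H2-Q6, 18.4% for Cd1d1 (all with Cd1d2), 23.2% for H2-T22 (mostly with H2-T10) and 25.8% for H2-Q7. Coding sequences of H2-Q6 and H2-Q7 were 95.4% identical, and those of H2-Q4 and H2-Q7 90.8%. H2-Q4 was as close to the classical H2-K1, at 90.6%, while H2-M2 reached at most 74.7% with any gene compared (H2-D1). Levels of the members with shared windows are therefore uncertain to the extent that the authors' counting could split reads between copies. The shared part was largest for H2-Q7, H2-T22, Cd1d1 and H2-Q6. H2-T22 and H2-T23 overlap A930015D03Rik and H2-Q4 overlaps Gm11131 on the opposite strand, and without a stated strand setting reads of such partners cannot be told apart.

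Bases before the annotated start are shown for H2-M2, H2-Q6, H2-Q7 and H2-Q4, which differed between 8, 6, 5 and 4 of the 10 pairs of populations, and for H2-T22, which differed in 1. Cd1d1 also differed in 4 pairs, and its promoter was not analysed here. Sequences are from RefSeq (GRCm38.p6), are written 5′ to 3′ on the gene's strand, and are the 180 bases that end at the base before the start. Capitals mark matches on either strand to GAANNGAAA (interferon response type), GGGNNTTCC (kappa B type), CCAAT (the NF-Y type box) and TGATGAC. The letters searched were chosen after these sequences had been seen, and no match overlapped another.
H2-M2 (chr17:37483555-37483734, minus strand): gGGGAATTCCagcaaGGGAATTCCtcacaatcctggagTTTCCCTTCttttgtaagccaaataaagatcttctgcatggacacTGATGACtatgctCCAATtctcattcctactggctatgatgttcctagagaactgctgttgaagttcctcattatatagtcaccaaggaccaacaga
H2-Q4 (chr17:35379437-35379616, plus strand): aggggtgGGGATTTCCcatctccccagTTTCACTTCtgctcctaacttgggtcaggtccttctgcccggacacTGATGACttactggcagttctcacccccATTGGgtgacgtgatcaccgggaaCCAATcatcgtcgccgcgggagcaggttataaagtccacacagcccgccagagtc
H2-Q6 (chr17:35424670-35424849, plus strand): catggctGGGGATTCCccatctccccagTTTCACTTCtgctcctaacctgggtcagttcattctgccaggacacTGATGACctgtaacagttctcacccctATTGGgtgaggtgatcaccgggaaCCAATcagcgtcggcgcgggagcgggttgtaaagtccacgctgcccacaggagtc
H2-Q7 (chr17:35438975-35439154, plus strand): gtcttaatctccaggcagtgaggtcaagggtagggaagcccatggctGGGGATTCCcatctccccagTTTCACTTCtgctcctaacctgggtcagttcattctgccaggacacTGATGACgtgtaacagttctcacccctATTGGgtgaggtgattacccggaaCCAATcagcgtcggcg
H2-T22 (chr17:36042743-36042922, minus strand): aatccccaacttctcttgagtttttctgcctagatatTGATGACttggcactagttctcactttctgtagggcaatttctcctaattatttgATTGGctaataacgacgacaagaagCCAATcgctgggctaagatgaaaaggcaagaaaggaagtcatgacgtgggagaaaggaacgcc

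H2-M2 and the Q genes carried the same kinds of match in the same order toward the start, with distances counted back from the base before the start as -1. In H2-M2 kappa B type matches began at -179 and -165, the interferon response type match at -142, TGATGAC at -97 and CCAAT at -84. In H2-Q6 the kappa B type match began at -173, the interferon response type match at -152, TGATGAC at -106 and CCAAT matches at -79 and -55. H2-Q4 held them at -173, -153, -107, -79 and -55, and H2-Q7 at -133, -113, -67, -40 and -16. The RefSeq start of H2-Q7 lies inside the gene span given above, which lengthens its distances rather than shortening them. H2-T22 held TGATGAC at -143 and CCAAT matches, with no match to the first 2 patterns in 250 bases. H2-M3, not printed here, held the interferon response type match at -101, TGATGAC at -49 and CCAAT matches, H2-T23 held a CCAAT match alone, and Mr1 held none of the 4 patterns. Of all 32851 promoter windows of the same length, 6.31% held the interferon response type pattern, 4.98% the kappa B type pattern, 33.85% CCAAT and 2.69% TGATGAC. These matches are letters in a window and not sites shown to be bound.

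**Figure D1:**
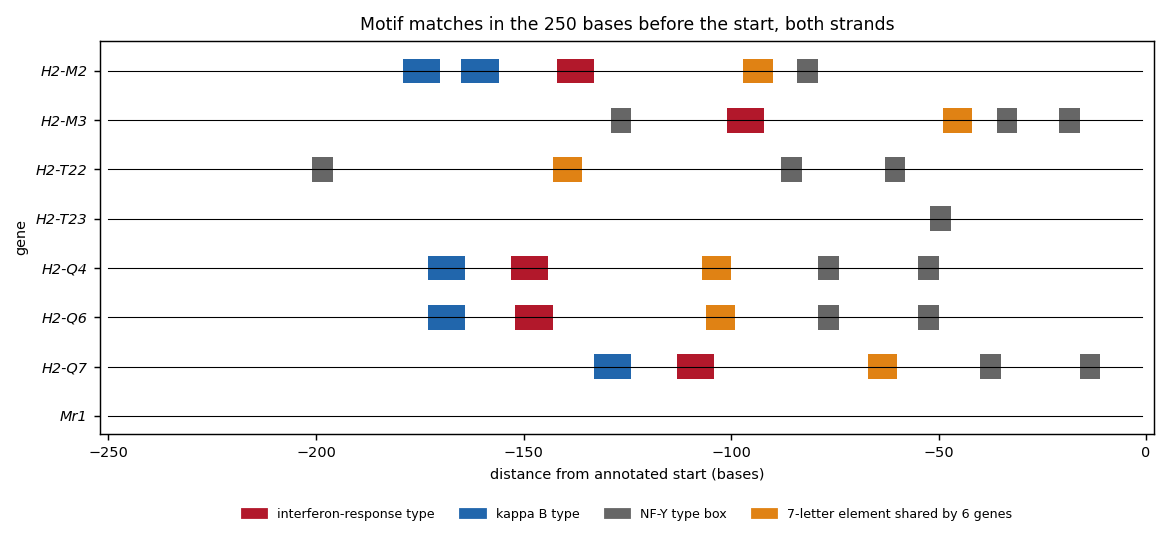
Matches to the 4 sequence patterns in the 250 bases before the annotated start of the 8 members with a RefSeq promoter entry, by distance from the start in bases. H2-M2, H2-Q4, H2-Q6 and H2-Q7 have the kappa B type match farthest from the start, then the interferon response type match, the TGATGAC element that 6 genes share (7 letters) and the NF-Y type box, and Mr1 has none.

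Total counts per library ran from 5636092 (ductal macrophages replicate 1) to 23093742 (stromal macrophages replicate 1). Genes of the mitochondrial genome took 24.8% and 23.1% of counts in the stromal libraries and at most 6.29% in any other. The genes of the sorting markers followed the labels, with Itgae (CD103) at 158 and 172 CPM in CD103+ against 9.39 and 3.80 CPM in CD103- cells, and Itgam (CD11b) at 701 and 556 CPM in CD11b+ cells against at most 11.4 CPM in CD11b- cells. CPM here are counts scaled to what remains of each library after the low-count filter and TMM scaling. Defining dendritic cell genes were low in the CD11b+ libraries: Flt3 stood at 16.8 and 18.1 CPM there, against 314 to 520 CPM in the CD11b- libraries. The 4 markers of CD11b+ dendritic cells were Itgam, Sirpa, Irf4 and Cd209a. They summed to 2211 and 1600.04 CPM in CD11b+ libraries, against 32.4 to 67.7 CPM in CD11b- libraries. In ductal macrophages their sums were 818 and 541 CPM, and in stromal macrophages 512 and 378 CPM. The 6 macrophage markers summed to 985 and 1019.8 CPM in CD11b+ libraries, against 16.8 to 64.7 CPM in CD11b- libraries and 3613 to 13934 CPM in macrophages. Of these, Csf1r averaged 558 CPM and Adgre1 292 CPM in CD11b+ cells, against 486 and 308 CPM in stromal macrophages, while Fcgr1 averaged 2.62 CPM and C1qa 24.6 CPM there, against 127 and 1601 CPM in stromal macrophages. The gene of CD11c, Itgax, was nearly absent from stromal macrophages, at 0.166 and 0.231 CPM. Xcr1, a marker of cross-presenting dendritic cells, stood at 223 and 378 CPM in CD103+ and at 225 and 258 CPM in CD103- cells. The B cell gene Ms4a1 stood apart in CD103- replicate 2, at 90.8 CPM.

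Across the 5 populations, 8 of the 9 members differed (F test over all populations in edgeR's quasi-likelihood fit, Benjamini-Hochberg adjusted p under 0.05), where 50.4% of the 15681 tested genes did. H2-M2 had the widest range, with its highest population mean 2407 times its lowest, followed by H2-Q6 at 13.1 times and H2-Q7 at 9.81 times. The other ratios of highest to lowest mean were 5.58 for Cd1d1, 4.36 for Mr1, 3.45 for H2-Q4, 2.71 for H2-T23, 2.32 for H2-M3 and 1.97 for H2-T22. H2-T22 was the member that did not pass (adjusted p = 0.0593), and it passed under 4 of 16 alternative settings (adjusted p from 0.0221 to 0.179). Calls fell to 5 members without ductal replicate 1, without ductal replicate 2 or without CD11b+ replicate 2. H2-T23 was lost without stromal replicate 2 (adjusted p = 0.0603, lowest over all settings 1.01e-05), and Cd1d1 without either ductal library or CD11b+ replicate 2 (0.122, 0.0876 and 0.0742, lowest 0.000703). H2-M3 and Mr1 were lost without any 1 of the ductal or CD11b+ libraries, and Mr1 also without CD103+ replicate 1 or CD103- replicate 2. With replicate number as a block their adjusted p was 0.0521 and 0.0718, and over all settings it ran from 0.00203 to 0.136 for H2-M3 and from 0.00976 to 0.170 for Mr1.

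**Figure D2:**
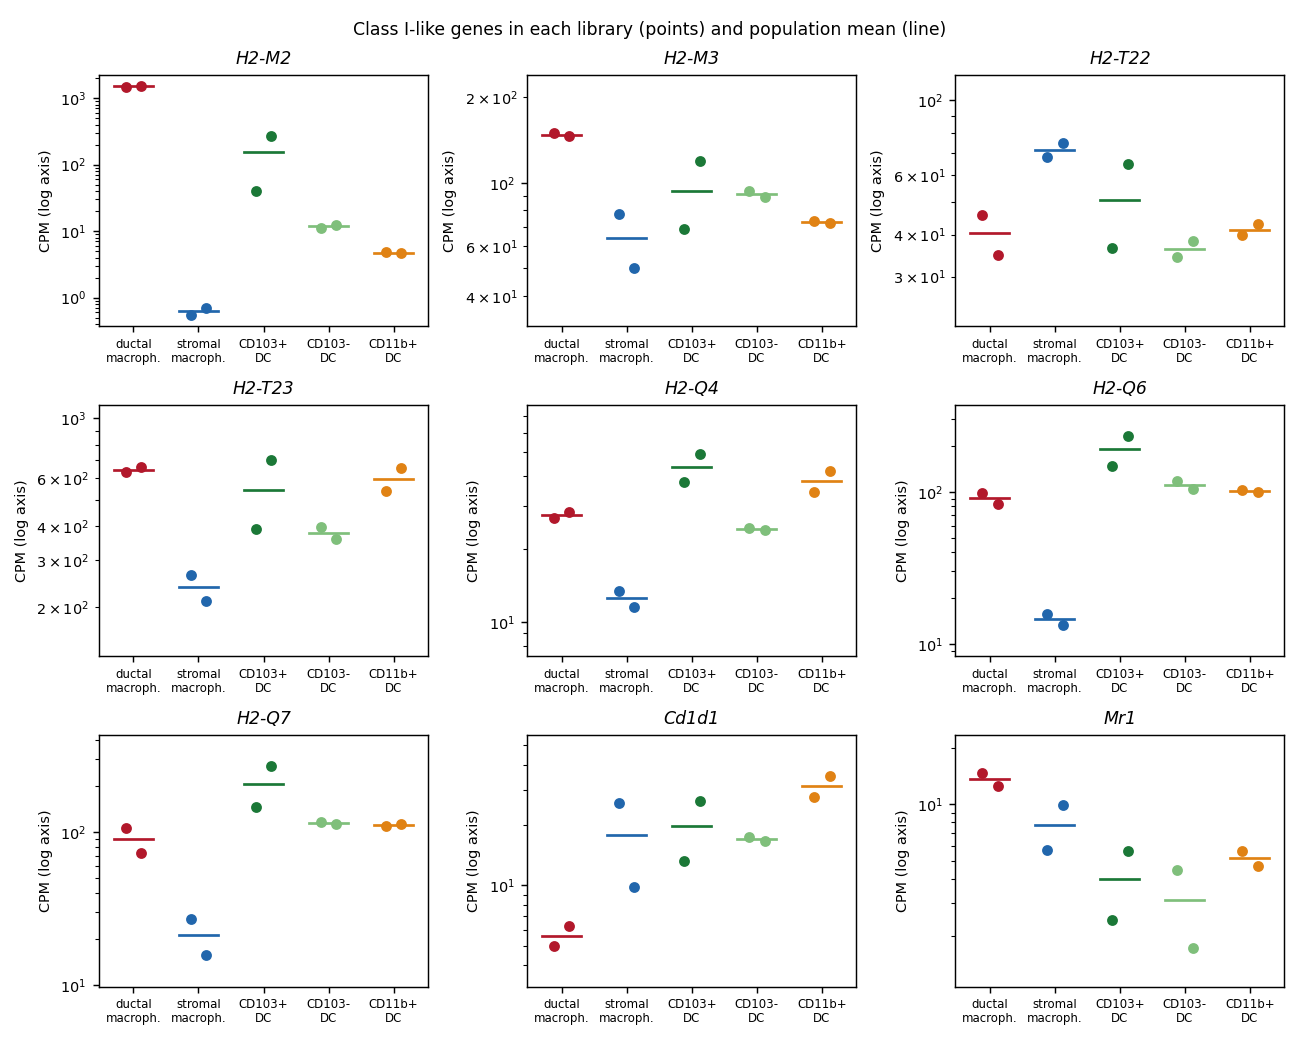
CPM of each member in each library (points; log axes that differ between panels) with the population mean as a line, 2 libraries per population. H2-M2 spans from 0.552 to 1522 CPM, the Q genes are lowest in stromal macrophages, and Cd1d1 is lowest in ductal macrophages.

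H2-M2 separated the ductal macrophages from every other population. It stood at 1474 and 1522 CPM in ductal macrophages, against 0.552 and 0.693 CPM in stromal macrophages, where these values rest on 10 and 12 counts. Among dendritic cells it stood at 40.5 and 272 CPM in CD103+ cells, 11.2 and 12.3 CPM in CD103- cells and 4.81 and 4.67 CPM in CD11b+ cells. The ductal libraries lay far above all others, the stromal libraries below all others, and the CD103+ libraries between and far apart from each other. In bulk RNA of a sorted population, fewer cells with a transcript and less of it per cell cannot be told apart, for this and all later values.

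The 5 levels of H2-M2 fell in the order ductal macrophages, CD103+, CD103- and CD11b+ dendritic cells, and stromal macrophages. Between neighbours, ductal macrophages lay 3.26 ± 0.65 above CD103+ cells (log2 ± SE; edgeR adjusted p = 0.00419) and CD11b+ cells lay 2.92 ± 0.84 above stromal macrophages (edgeR adjusted p = 0.0261). CD103+ cells were 3.73 ± 0.67 above CD103- cells (edgeR adjusted p = 0.138), and CD103- cells were 1.31 ± 0.67 above CD11b+ cells (edgeR adjusted p = 0.215), so neither pair of neighbours passed. H2-M2 was called in 8 of the 10 pairs of populations, more than any other member. Of all tested genes, ductal macrophages differed in 23.9% from CD103+, 22.9% from CD103- and 23.3% from CD11b+ cells. Stromal macrophages differed from the same populations in 33.6%, 35.3% and 26.1%, and 20.8% were called between CD103+ and CD11b+ and 17.5% between CD103- and CD11b+ cells. The 2 other pairs are given with their comparisons below.

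H2-M3, the formyl peptide presenter, was highest in ductal macrophages within a narrow range. Its levels were 150.1 and 145 CPM in ductal macrophages, against 77.4 and 50.1 CPM in stromal macrophages. In dendritic cells they were 68.6 and 119 CPM in CD103+, 93.7 and 88.9 CPM in CD103- and 73.6 and 72.2 CPM in CD11b+ cells. No library of another population reached the lower ductal library. No pair of neighbours in the order of its levels passed, and 2 of 10 pairs did, ductal macrophages over stromal macrophages (log2 difference 1.21 ± 0.29, edgeR adjusted p = 0.0103) and over CD11b+ cells (1.02 ± 0.29, edgeR adjusted p = 0.0291). The first of these was lost without ductal replicate 1 (edgeR adjusted p = 0.0576) or stromal replicate 2 (0.0648), and its adjusted p ran from 0.000403 to 0.0648 over all settings.

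H2-T23, which encodes Qa-1, had its lowest level in stromal macrophages, though it was the highest member there. It stood at 631 and 659.9 CPM in ductal macrophages, against 265 and 211 CPM in stromal macrophages. CD103+ cells had 389 and 701 CPM, CD103- cells 398 and 359 CPM and CD11b+ cells 538 and 653 CPM. The stromal libraries lay below all others, while those of ductal macrophages, CD103+ and CD11b+ cells overlapped. Stromal macrophages lay 1.44 ± 0.30 below ductal macrophages, 1.32 ± 0.30 below CD11b+ and 1.20 ± 0.30 below CD103+ cells on the log2 scale (edgeR adjusted p = 0.00489, 0.00899 and 0.0117), and the 0.67 ± 0.30 to CD103- cells did not pass (edgeR adjusted p = 0.105).

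H2-T22, the gamma-delta T cell ligand gene, was the member whose highest level was in stromal macrophages. Its levels were 45.8 and 34.8 CPM in ductal macrophages, against 68.1 and 74.5 CPM in stromal macrophages. They were 36.5 and 64.9 CPM in CD103+, 34.2 and 38.2 CPM in CD103- and 39.8 and 42.9 CPM in CD11b+ cells. Both stromal libraries were above every other library, with CD103+ replicate 2 next. Of the 10 pairs, stromal macrophages over CD103- cells passed (log2 difference 0.98 ± 0.28, edgeR adjusted p = 0.0216), and no neighbours in the order did. Its close copy H2-T10 was at 2.19 to 10.9 CPM and went the other way. The mean of H2-T10 was lowest in stromal macrophages, below means of 4.07 to 8.95 CPM in the other populations.

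H2-Q6 and H2-Q7, the Qa-2 genes, shared an order, with CD103+ dendritic cells at the top and stromal macrophages at the bottom. H2-Q6 stood at 97.7 and 82.8 CPM in ductal macrophages, against 15.8 and 13.3 CPM in stromal macrophages. It stood at 148 and 232 CPM in CD103+, 118 and 105 CPM in CD103- and 103.2 and 99.8 CPM in CD11b+ cells. The stromal libraries were below all others by a wide margin, and both CD103+ libraries were above all others. The same was so for H2-Q7, which had 106 and 73.4 CPM in ductal macrophages, against 26.8 and 15.6 CPM in stromal macrophages, and 145 and 271 CPM in CD103+, 116 and 113 CPM in CD103- and 111 and 113 CPM in CD11b+ cells.

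For both Qa-2 genes the drop to the stromal macrophages was the step between neighbours that passed. Ductal macrophages, next above them, were higher by 2.63 ± 0.27 for H2-Q6 (log2, edgeR adjusted p = 5.00e-05) and by 2.08 ± 0.36 for H2-Q7 (edgeR adjusted p = 0.00138). Ductal macrophages were also lower than CD103+ cells, by -1.07 ± 0.26 for H2-Q6 (edgeR adjusted p = 0.0115) and -1.21 ± 0.34 for H2-Q7 (edgeR adjusted p = 0.0265). With the counts of the 2 genes summed into 1 row, neither lost or gained a call in the 6 main comparisons.

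H2-Q4, which encodes Qb-1, was lower in level and also lowest in stromal macrophages. It stood at 26.9 and 28.4 CPM in ductal macrophages, against 13.5 and 11.6 CPM in stromal macrophages. CD103+ cells had 37.7 and 48.8 CPM, CD103- cells 24.3 and 24.02 CPM and CD11b+ cells 34.4 and 41.6 CPM. Stromal macrophages lay below each of the other 4 populations (log2 differences of 0.95 to 1.79, edgeR adjusted p from 0.000354 to 0.0130), and no other pair passed.

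Cd1d1 was the member whose lowest level was in ductal macrophages. It stood at 5.01 and 6.24 CPM in ductal macrophages, which are 22 and 33 counts, against 25.9 and 9.81 CPM in stromal macrophages. In dendritic cells it stood at 13.2 and 26.3 CPM in CD103+, 17.4 and 16.7 CPM in CD103- and 27.6 and 35.2 CPM in CD11b+ cells. The ductal libraries were below every other library, and the stromal replicates differed widely. Ductal macrophages were lower than each of the other 4 populations, from -1.59 ± 0.50 against CD103- cells (log2, edgeR adjusted p = 0.0391) to -2.47 ± 0.50 against CD11b+ cells (edgeR adjusted p = 0.00515), and no other pair passed.

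Mr1 was low in all populations and highest in ductal macrophages. It stood at 14.6 and 12.5 CPM in ductal macrophages, against 5.69 and 9.87 CPM in stromal macrophages. CD103+ cells had 2.42 and 5.62 CPM, CD103- cells 4.49 and 1.72 CPM and CD11b+ cells 5.64 and 4.67 CPM, and its counts were between 26 and 171 over all libraries. The ductal libraries were above all others, and the dendritic cell populations overlapped. Ductal macrophages were higher than CD103- cells by 2.14 ± 0.59 (log2, edgeR adjusted p = 0.0227) and than CD103+ cells by 1.75 ± 0.57 (edgeR adjusted p = 0.0480).

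Ductal macrophages set against stromal macrophages gave the most members called. Of the 9, 6 were higher and 1 was lower in ductal macrophages, where 16.3% of tested genes were higher and 14.3% lower (30.6% in all). The median log2 difference was 1.21 over the members and -0.10 over all tested genes. The higher members were H2-M2 (11.22 ± 0.95), H2-Q6, H2-Q7, H2-T23, H2-M3 and H2-Q4 (1.14 ± 0.25, edgeR adjusted p = 0.00624). Cd1d1 was lower (-1.66 ± 0.50, edgeR adjusted p = 0.0269), H2-T22 had -0.82 ± 0.29 (edgeR adjusted p = 0.0506) and Mr1 0.80 ± 0.56 (edgeR adjusted p = 0.307).

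Several of these values rest on few libraries. The Cd1d1 difference was -0.76 (edgeR adjusted p = 0.220) without stromal replicate 1, -1.51 (0.160) without ductal replicate 1 and -1.83 (0.0931) without ductal replicate 2, while its adjusted p over all settings ran from 0.00278 to 0.220. H2-M3 lost its call as described above, and H2-T22 gained one under 5 of 16 settings (edgeR or DESeq2 adjusted p from 0.0275 to 0.260). With mitochondrial genes removed, the 6 higher members and Cd1d1 were still called. Some genes of other cells were also unequal between the 2 populations. The 6 epithelial markers summed to 159 and 258 CPM in ductal macrophages, against 552 and 1344 CPM in stromal macrophages. The 6 fibroblast markers overlapped, at 415 and 1213 CPM, against 1170 and 1598 CPM. So did the 5 endothelial markers, at 48.7 and 107 CPM, against 27.8 and 107 CPM. The 5 neutrophil markers were higher in ductal macrophages, at 169 and 135 CPM, against 35.6 and 28.3 CPM. Of these 5, 4 had no counts in either ductal library. Adipoq stood at 0.228 and 0.189 CPM in ductal macrophages, against 25.9 and 26.3 CPM in stromal macrophages. The part of such RNA in the members' differences was not tested.

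**Figure D3:**
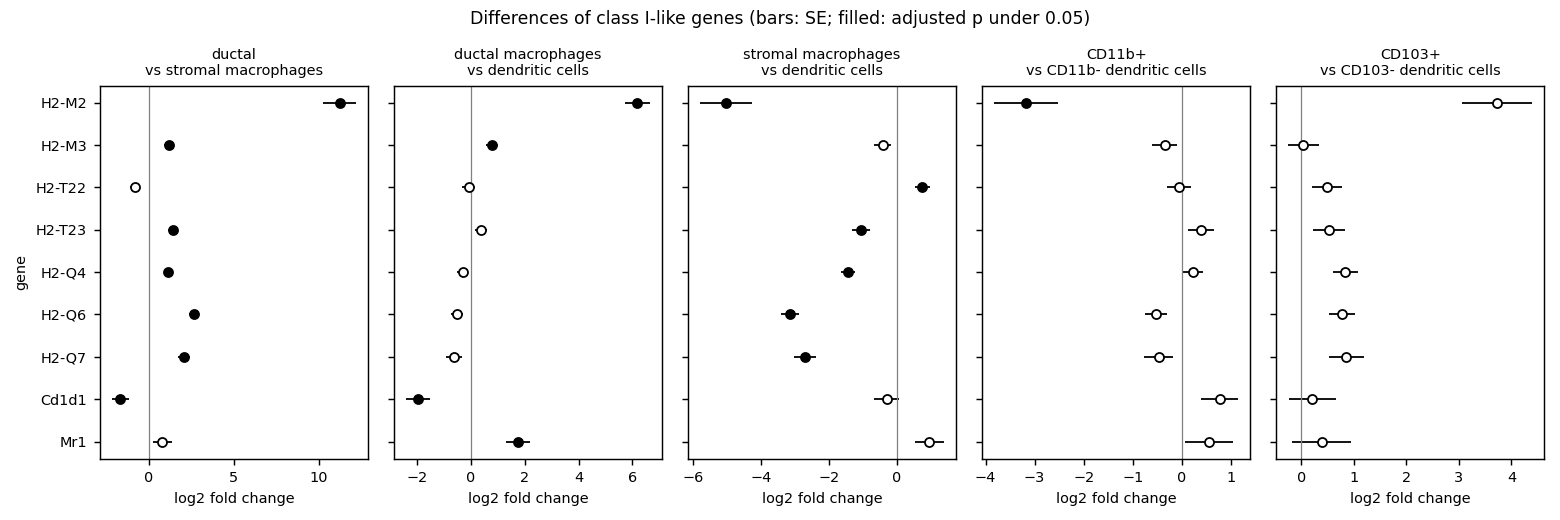
Log2 fold changes of the 9 members in 5 comparisons, first-named population over the second, with SE bars, and filled points for an edgeR adjusted p under 0.05. Scales differ between panels. H2-M2 is the farthest point in every panel, at 11.22 for ductal over stromal macrophages and at -5.03 for stromal macrophages over dendritic cells.

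Against the mean of the 3 dendritic cell populations, ductal macrophages were higher in 3 members and lower in 1, where 15.0% of tested genes were higher and 11.6% lower (26.6% in all). H2-M2 was higher by 6.18 ± 0.47, Mr1 by 1.75 ± 0.43 and H2-M3 by 0.79 ± 0.23, and Cd1d1 was lower, at -1.96 ± 0.45 (log2; edgeR adjusted p = 3.68e-06, 0.0116, 0.0257 and 0.00758). The other 5 lay between -0.63 for H2-Q7 and 0.38 for H2-T23, and the median of all 9 was -0.07, against -0.09 for all tested genes. With either ductal library left out, H2-M2 was the one member still called. H2-Q6, at -0.52 ± 0.21, passed without CD103+ replicate 1 (-0.61, edgeR adjusted p = 0.0452, highest over all settings 0.407). Cd1d1 then had an adjusted p of 0.101 or 0.0536, Mr1 of 0.116 or 0.0558 and H2-M3 of 0.175 or 0.117 (edgeR; without ductal replicate 1 or 2), and over all settings the lowest were 5.70e-05, 0.00194 and 0.00849. H2-M3 was also lost without either CD11b+ library (edgeR adjusted p = 0.0572 and 0.0564).

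Stromal macrophages set against the same dendritic cell mean were lower in 5 members and higher in 1, where 18.2% of tested genes were lower and 20.3% higher (38.4% in all). This comparison shares its dendritic cell libraries with the one before. H2-M2 had -5.03 ± 0.76, H2-Q6 -3.15 ± 0.25, H2-Q7 -2.71 ± 0.33, H2-Q4 -1.44 ± 0.22 and H2-T23 -1.06 ± 0.26 (log2; edgeR adjusted p from 6.25e-06 to 0.00839). H2-T22 was higher by 0.75 ± 0.22 (edgeR adjusted p = 0.0203). Summing its counts with H2-T10 gave 0.57 (edgeR adjusted p = 0.0658), and it was also lost without stromal replicate 1 (0.0665), stromal replicate 2 (0.0929) or CD11b+ replicate 1 (0.0522), with a lowest adjusted p of 0.00599 over all settings. H2-T23 was lost without stromal replicate 2 (edgeR adjusted p = 0.0693, lowest over all settings 2.06e-05). Cd1d1 (-0.30 ± 0.37), H2-M3 (-0.42 ± 0.24) and Mr1 (0.96 ± 0.43) did not pass. Without stromal replicate 1 the Cd1d1 value was -1.23 and passed (edgeR adjusted p = 0.0374, up to 0.863 under other settings). Mr1 had 1.23 and passed without CD103- replicate 1 (edgeR adjusted p = 0.0398, up to 0.511 under other settings).

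Between CD11b+ dendritic cells and the mean of both CD11b- populations, H2-M2 was the member called, where 25.1% of tested genes were called in either direction. It was lower in CD11b+ cells, at -3.17 ± 0.65 (log2, edgeR adjusted p = 0.00518), and all 4 CD11b- libraries lay above both CD11b+ libraries. Without CD103+ replicate 2 the value was -2.20 and still passed, and without CD11b+ replicate 1 or 2 it was -3.20 and -3.14 and did not (edgeR adjusted p = 0.0681 and 0.0637, lowest over all settings 1.88e-08). The other 8 lay between -0.52 ± 0.22 for H2-Q6 and 0.77 ± 0.38 for Cd1d1. The median of the members was -0.05, against -0.07 for all tested genes. Of 6 T cell markers, Cd2 stood at 192 and 234 CPM in CD11b+ libraries, against 0.913 to 14.6 CPM in CD11b- libraries, and the other 5 (Cd3e, Cd3d, Cd3g, Trac and Lck) were at most 3.71 CPM in CD11b+ and at most 5.94 CPM in CD11b- libraries.

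No member was called between CD103+ and CD103- dendritic cells by edgeR, where 5 of all tested genes (0.0319%) were called. At an unadjusted p under 0.05 there were 4 members, H2-M2, H2-Q4, H2-Q6 and H2-Q7, and 1000 genes in all, and DESeq2 called 1 member, H2-M2. Its log2 difference was 3.73 ± 0.67 (edgeR adjusted p = 0.138). It passed with no filter on low counts (3.74, adjusted p = 4.26e-05), in DESeq2 (3.74, adjusted p = 1.14e-07) and without CD103+ replicate 1 (4.53, adjusted p = 0.000223), and was 1.78 without CD103+ replicate 2, with an adjusted p of up to 1 over all settings. The other members lay between 0.04 ± 0.29 for H2-M3 and 0.86 ± 0.34 for H2-Q7, all above 0 with all libraries kept. The median over the 9 was 0.53, against -0.02 for all tested genes. Over all settings the lowest values were -0.41 for H2-M3, -0.37 for Cd1d1 and -0.34 for Mr1, and the rest stayed above 0. The 5 B cell markers summed to 5.44 and 7.40 CPM in CD103+ libraries, against 34.5 and 280 CPM in CD103- libraries, and their part in these values was not tested.

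The CD103+ libraries differed from each other in all members. CD103+ replicate 2 was above replicate 1 in 9 of 9, by a median of 0.85 on the log2 scale, where it was above in 53.7% of all tested genes, with a median of 0.05. The ratio of replicate 2 to replicate 1 was 6.71 for H2-M2, 2.32 for Mr1, 1.99 for Cd1d1 and between 1.29 and 1.86 for the other 6. Genes known from mature dendritic cells were higher in the same library. A list of 12 such genes, chosen after values had been seen, was above replicate 1 in 12 of 12, with a median of 1.29, and its summed level was 2105 CPM in replicate 1 and 5386 CPM in replicate 2, against 1075 and 973 CPM in the CD103- libraries. Among them the chemokine Ccl5 had a ratio of 5.09, the actin-bundling Fscn1 of 4.22, the chemokine Ccl22 of 2.65 and the lymph node homing receptor Ccr7 of 1.85. The part of mature cells in the members' values was not tested.

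In ductal macrophages, where H2-M2 was highest, 7 of these 12 genes were lower than in the dendritic cell mean and none was higher (edgeR adjusted p under 0.05), where 11.6% of all tested genes were lower and 15.0% higher. The list was chosen with values known, so this count is a description. Fscn1 was at 3.19 and 7.19 CPM in ductal macrophages, against 149 and 631 CPM in CD103+ cells. Cacnb3 was at 0.911 and 0.567 CPM in ductal macrophages, against 95.4 and 242 CPM in CD103+ cells. Ccr7 was at 93.6 and 70.7 CPM in ductal macrophages, had no counts in stromal macrophages, and stood at 668 and 1235 CPM in CD103+ cells. The summed level of the 12 was 987 and 972 CPM in ductal macrophages, below both CD103+ libraries but close to the 1075 and 973 CPM of CD103- cells and above the 962 and 569 CPM of CD11b+ cells.

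**Figure D4:**
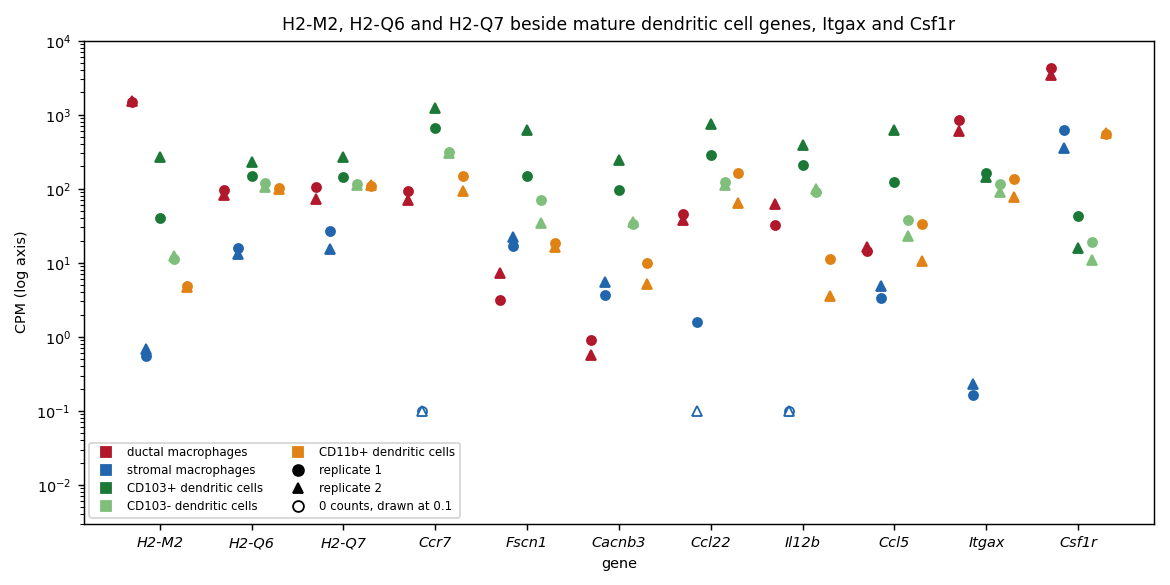
CPM (log axis) of H2-M2, H2-Q6 and H2-Q7 beside 6 genes of mature dendritic cells, Itgax and Csf1r in the 10 libraries, with open symbols for 0 counts drawn at 0.1. CD103+ replicate 2 lies above CD103+ replicate 1 in the first 9 genes, and ductal macrophages hold the most H2-M2 with Fscn1 at 3.19 and 7.19 CPM.

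Levels per length showed which members made up the set in each population, on the RPKM scale (counts per kilobase of the length in the authors' table, scaled by the same totals). The 9 members summed to 1767 and 1776 RPKM in ductal macrophages, against 352 and 278 RPKM in stromal macrophages. H2-M2 made up 54.6% and 56.1% of that sum in ductal macrophages, against 0.103% and 0.163% in stromal macrophages, and 3.99% and 13.8% in CD103+ cells. In every other population H2-T23 was the leading member, with 41.4% to 62.5% of the sum, and in ductal macrophages it was next at 27.1% and 28.2%. In dendritic cells H2-Q6 was next after H2-T23, with 12.8% to 22.7% of the sum. The H2-Q6 share depends on its length of 981 bases in the authors' table, since the annotated transcript has 2085.

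Set beside the classical genes, the set was largest in ductal macrophages. Its summed RPKM was 52.2% and 60.8% of the sum of H2-K1 and H2-D1 in ductal macrophages, against 24.02% and 26.9% in stromal macrophages. The share was 30.9% and 36.9% in CD103+, 28.4% and 32.4% in CD103- and 19.8% and 20.4% in CD11b+ cells. H2-M2 alone made up 54.6% and 56.1% of the ductal sum, against 0.103% and 0.163% of the stromal sum. The larger ductal share therefore rests on this 1 gene and is not shown for the rest of the set. Per length, H2-M2 at 964 and 996 RPKM in ductal macrophages was below H2-K1 at 1522 and 1355 RPKM and H2-D1 at 1865 and 1565 RPKM. Cd1d1 and Mr1 were the lowest members per length in ductal macrophages, with Cd1d1 at 2.72 and 3.38 RPKM and Mr1 at 5.81 and 4.98 RPKM.

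**Figure D5:**
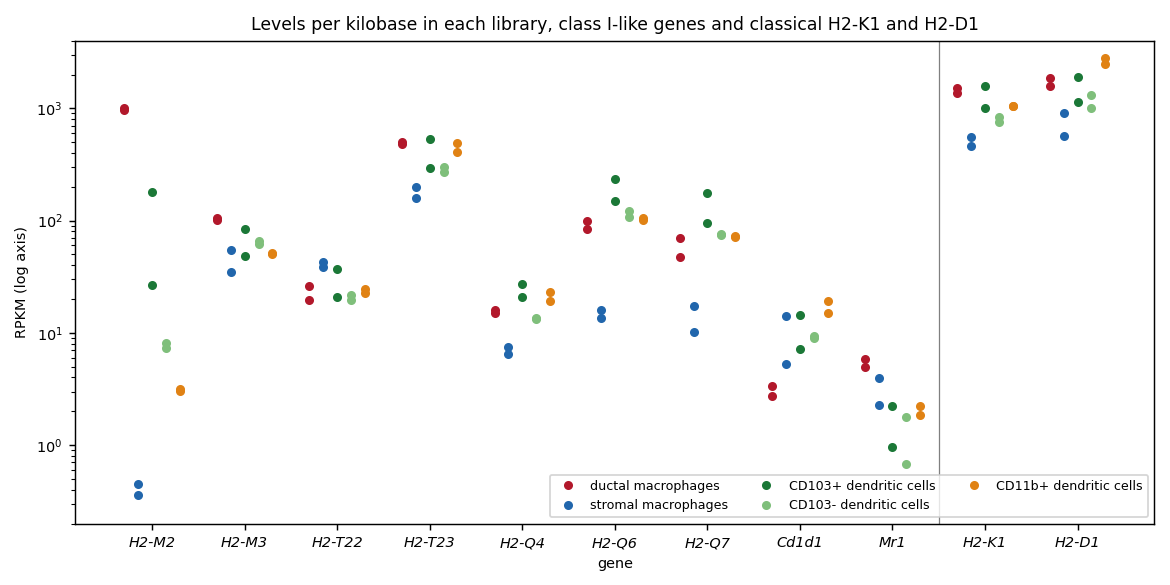
RPKM (log axis) of the 9 members, with the classical genes H2-K1 and H2-D1 right of the line, in each of the 10 libraries. H2-M2 reaches 964 and 996 RPKM in ductal macrophages, against 0.361 and 0.453 RPKM in stromal macrophages, while H2-T23 is the highest member in all other populations.

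Genes of the class I pathway outside the set were counted in the same fit. The classical genes and the light chain, H2-K1, H2-D1 and B2m, were all higher in ductal than in stromal macrophages, by 1.5 ± 0.30, 1.21 ± 0.36 and 1.74 ± 0.39 (log2; edgeR adjusted p = 0.00326, 0.0269 and 0.00664). B2m, which encodes beta-2-microglobulin, stood at 5229 and 5576 CPM in ductal macrophages, against 1865 and 1380.1 CPM in stromal macrophages. Of 13 genes that make and load class I peptides, 7 were higher in ductal than in stromal macrophages and none lower (median log2 difference 1.16), where 16.3% of all tested genes were higher and 14.3% lower, with a median of -0.10. They were led by the loading chaperone Tapbp (2.41 ± 0.33), the trimming peptidase Erap1 (1.93 ± 0.25) and the transporter subunit Tap2 (1.71 ± 0.26). Against the dendritic cell mean, ductal macrophages had 5 of the 13 higher, Canx and Calr among them, and 3 lower, with the transporter subunit Tap1 at -1.78 ± 0.24 and the proteasome subunit Psmb9 at -1.26 ± 0.24, where 15.0% of all tested genes were higher and 11.6% lower. Stromal macrophages had 8 of the 13 lower than the dendritic cell mean, led by Tap1 at -2.96 ± 0.26, and none higher, where 18.2% of all tested genes were lower and 20.3% higher. In CD11b+ cells 5 were lower and 2 higher than in CD11b- cells, where 25.1% of all tested genes were called in either direction.

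Genes that serve the ligands of CD1d and MR1 were counted in the same way, and their counts for ductal against stromal macrophages stand beside the same 16.3% higher and 14.3% lower over all tested genes. Of 14 genes of lipid loading and trafficking of CD1d, 7 were higher and 1 lower in ductal than in stromal macrophages (median 1.58), while Cd1d1 itself was lower. Among the higher ones were the invariant chain Cd74 (4.59 ± 0.54), the protease Ctss (3.93 ± 0.43) and the saposin precursor Psap (3.42 ± 0.37). The lower one was the adaptor subunit Ap2m1 (-1.71 ± 0.22), named after its value was seen. Of 9 genes of MR1 folding and trafficking, 6 were higher and 2 lower (median 1.52), led by Cd74 and Atp13a1 (2.93 ± 0.30), and Mr1 itself did not pass. This is not a separate count, since Cd74, B2m, Tapbp, Tapbpl and Calr are also in the lists above. Of the genes in this list alone, Atp13a1 was higher, while Vamp4, Rab6a and Stx18 had lower means. These were 23.1, 75.8 and 18.5 CPM in ductal macrophages, against 45.0, 141.9 and 23.6 CPM in stromal macrophages. Of 19 genes of class I transcription, 8 were higher and 2 lower (median 0.32), beside the same shares and the median of -0.10 over all tested genes. Nlrc5, the activator of class I genes, was higher by 1.72 ± 0.27, at 55.6 and 39.0 CPM in ductal macrophages against 17.1 and 11.7 CPM in stromal macrophages. The interferon receptor chains Ifnar1 and Ifngr1 were higher by 3.05 ± 0.27 and 2.50 ± 0.28, and Stat2 was lower, at -1.92 ± 0.26. In CD11b+ cells 7 of the 19 were lower than in CD11b- cells and 1 was higher, with Irf8 at -5.84 ± 0.38 and Nlrc5 at -1.52 ± 0.24, where 25.1% of all tested genes were called in either direction.

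Of 29 other class I-like genes on the list, 24 were in the table and 16 were tested. H2-T9, H2-Q5, H2-Q8, H2-Q9 and H60a were not analysed here. In ductal against stromal macrophages 4 were higher and 2 lower of the 16, near the share of all tested genes called (30.6%, with 16.3% higher and 14.3% lower), with a median log2 difference of 0.24. Procr, the endothelial protein C receptor, was higher, at 156 and 115 CPM in ductal macrophages against 2.21 and 15.6 CPM in stromal macrophages (3.93 ± 0.69, edgeR adjusted p = 0.00159). Fcgrt, the neonatal Fc receptor, was lower, at 151 and 208 CPM in ductal macrophages against 1550 and 1242 CPM in stromal macrophages (-2.96 ± 0.32, edgeR adjusted p = 6.46e-05). The NKG2D ligand gene H60b had no counts in the 4 macrophage libraries and 1.17 to 3.21 CPM in dendritic cells. Stromal macrophages had 8 of the 16 lower than the dendritic cell mean and 2 higher (median -1.32), where 18.2% of all tested genes were lower and 20.3% higher. In CD11b+ against CD11b- cells 3 were lower and 2 higher, where 25.1% of all tested genes were called in either direction. Among the lower ones was H2-M9 of the M region, at 1.31 and 1.80 CPM against 2.35 to 19.3 CPM (-2.51 ± 0.62, edgeR adjusted p = 0.0133).

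Among themselves the members fell into patterns over the 10 libraries, given as Pearson's r of log2 CPM. These are descriptions, since the libraries share 5 populations and H2-Q6 and H2-Q7 share sequence. H2-Q6 and H2-Q7 had r = 0.986, H2-Q4 had 0.925 with H2-Q7 and 0.921 with H2-Q6, and H2-M2 and H2-M3 had 0.886. The lowest value was -0.61, between H2-T22 and H2-Q6, and Cd1d1 had -0.59 with H2-M2. Among 10270 other genes, the one most like H2-M2 was Rogdi (r = 0.985), at 435 and 377 CPM in ductal macrophages against 25.1 and 24.4 CPM in stromal macrophages, followed by Scimp (0.977) and Nt5dc3 (0.976). Those most like H2-M3 were Ube2q1 (0.958), Faf2 and Derl1. H2-Q6 was most like Ccr7 (0.992), Rap2a and Dync1h1, and H2-Q7 was most like Ccl22 (0.984), Rap2a and Ccr7. H2-Q4 followed Tes (0.959), the costimulatory gene Cd80 and Otud5. H2-T23 followed Dok1 (0.963), Arl4c and the classical H2-K1 (0.952). H2-T22 followed Leng1 (0.927), Ensa and Pde6d. Cd1d1 followed 4930455G09Rik (0.952), Oxct1, which encodes a ketone body enzyme, and Bcl7c, and Mr1 followed Aco1 (0.968), Lonrf1 and Cyp4f13.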

How the data were processed

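RNA-seq of 5 sorted populations, 2 libraries each, was analysed from deposited raw counts per gene. Per the submitters' processing notes the authors counted reads with featureCounts on mm10, with no version given. No source used here gives the aligner, annotation or strand setting. Reads were paired and 80 bases long, and the library kit was TruSeq RNA, per the labels. Each library's own table held the same counts as the table of the whole series. Gene IDs were named from RefSeq (25275 of 27179) and GENCODE (18), and 1886 unnamed IDs (0.386% to 2.32% of counts) stayed in totals and tests.

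Counts were fitted with edgeR 4.0.16 in R 4.3.3 over all 5 populations (filterByExpr with minimum count 10 and minimum total 15, TMM with factors of 0.779 to 1.36, quasi-likelihood, 5 residual degrees of freedom, common biological coefficient of variation 0.333). This left 15681 genes. Benjamini-Hochberg adjustment ran over all of these, with calls under an adjusted p of 0.05, and p-values measure the spread between replicates, which the labels call biological. SE was taken as |log2 fold change| divided by √F. CPM use TMM-adjusted totals of tested genes, and 3 counts equal 0.119 to 0.683 CPM. RPKM use the length deposited by the authors. The fit was tested on simulated data.

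Genes named are the 9 members, up to 4 genes per list and comparison, ranked by size of log2 fold change, and the 3 genes most correlated with each member among named genes of at least 10 CPM in a population (prior count 2). Values of 2 single genes that this rule or the marker lists hold are not reported here. Members and lists were chosen with earlier results of these data known. Alternatives were DESeq2 size factors, no low-count filter, DESeq2 1.42.0, replicate number as a block, mitochondrial genes removed, near-identical genes summed (H2-Q6 with H2-Q7, H2-T22 with H2-T10) and each library left out.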

Additional observations from a re-analysis of the deposited data

How the results depend on the processing

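Under 16 alternatives (6 settings and each of 10 libraries left out), no called difference of a member changed sign. Of 864 values, 813 kept their side of the threshold, 36 lost a call, 33 of them with a library left out, and 15 gained one. The number of members called with a library left out ran from 5 to 9 in the test over populations (8 with all libraries), from 1 to 5 for ductal macrophages against dendritic cells (4), from 0 to 1 for CD11b+ against CD11b- dendritic cells (1) and from 0 to 1 for CD103+ against CD103- dendritic cells (0). In the last comparison 1 member, H2-M2, was also called with no low-count filter and by DESeq2. The alternatives were run on the 6 comparisons and not on the other pairs of populations. A lone library was assumed to vary like the other populations where its partner was left out. Deviations of same-numbered libraries correlated weakly between populations (-0.176 to 0.177). From 2 libraries per population it cannot be decided whether the replicate numbers pair the samples. With the replicate block, 2 calls were lost, both in the test over populations (H2-M3, adjusted p = 0.0521, and Mr1, adjusted p = 0.0718), and the cause was not tested. Depth was lowest in the ductal libraries and CD11b+ replicate 2, and in ductal macrophages Cd1d1 rested on 22 and 33 counts. H2-M2 rested on 10 and 12 counts in the deeper stromal libraries.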
